A study of Mus musculus with 6 samples.

Results

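Rab GTPases are small switch proteins that mark the membrane compartments of the cell, and the TBC domain proteins include the enzymes that turn them off. The genes described here were chosen by name and biotype: every protein-coding gene of the GENCODE M21 annotation whose symbol begins with Rab or Tbc1d followed by a digit. The rule found 99 genes among the 48440 rows of the count table. Of these, 59 encode Rab GTPases and 30 carry a Tbc1d name. The remaining 10 carry a Rab name but are neither: 9 are effectors, regulators or exchange factors such as Rab11fip1 and Rab3gap1, and the other is Rab5if.

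RNA was sequenced from primary mouse CD4+ T cells, the helper T lymphocytes, of wildtype mice. All cells were taken out of lymph nodes and spleen, grown for 3 days on plates coated with antibodies to CD3 and CD28, and expanded in interleukin 2 for 5 days, so both groups consisted of previously activated cells. The stimulated group (3 libraries) then met the 2 antibodies again for 4 hours, and the unstimulated group (3 libraries) was left at rest. The labels call the 3 libraries of a group biological replicates without saying which mice or cultures they came from.

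A Rab protein is active when it holds GTP and inactive when it holds GDP. Exchange factors such as the DENN domain proteins load GTP, active Rabs recruit effectors that move, tether or fuse vesicles, and TBC domain GTPase-activating proteins speed GTP hydrolysis. In T cells, Rabs recycle the T cell receptor to the contact with the antigen-presenting cell, sort internalised receptors to lysosomes and release secretory granules.

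The libraries held 29897720 to 30252923 counted reads, and a count of 3 reads corresponded to 0.0943 to 0.106 CPM (the gene's reads scaled to a common library size). Levels are CPM after TMM scaling of library sizes, as mean ± SD over 3 libraries, and a log2 fold change with its SE sets stimulated over unstimulated cells. This SE is approximate: it is the absolute log2 fold change divided by the square root of the F statistic of the test named next. Adjusted p-values come from the edgeR quasi-likelihood test with Benjamini-Hochberg adjustment over all 13314 tested genes, and a gene rose or fell where this value was under 0.05. The 8 T cell markers summed to 2295 to 2411 CPM in stimulated and 4320 to 4611 CPM in unstimulated libraries, and Il2 measured 216 to 313 CPM in stimulated and 0.377 to 0.605 CPM in unstimulated ones. Of the markers of other cells, 7 B cell genes summed to 729 to 1281 CPM in stimulated and 1410 to 2865 CPM in unstimulated libraries, nearly all of it Ighm, and without Ighm the sums were 29.1 to 29.7 CPM in stimulated and 74.9 to 76.3 CPM in unstimulated libraries. The 7 myeloid markers summed to 3.38 to 6.56 CPM in stimulated and 5.91 to 7.51 CPM in unstimulated libraries. The 6 CD8 and natural killer cell genes summed to 81.0 to 139 CPM in stimulated and 23.3 to 41.7 CPM in unstimulated libraries, with Ncr1 and Klrb1c under 0.1 CPM in each. Most of this difference was Eomes, which activated T cells also express, and without it the sums were 21.7 to 27.0 CPM in stimulated and 21.7 to 25.5 CPM in unstimulated libraries. The T cell and B cell sums and Eomes thus moved with the contrast, and their part in the changes given here was not tested. The myeloid sums and the CD8 and natural killer sums without Eomes overlapped between the groups. Some single genes within them did not overlap, while others, such as Lyz2, Fcer1g and Klrk1, did. Cd8a (7.86 to 8.68 CPM in stimulated, 3.63 to 4.20 CPM in unstimulated libraries) and Itgax (1.17 to 3.76, 0.126 to 0.318) were higher. Cd8b1 (12.9 to 17.15, 17.22 to 20.6), Itgam (0.456 to 1.03, 2.61 to 3.82) and Adgre1 (0.597 to 0.896, 1.68 to 2.77) were lower. The part of these genes was not tested either. In bulk RNA, fewer cells of a type and less RNA per cell cannot be told apart.

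Transcripts of the Rab and TBC genes were more often lower than higher after restimulation. Of the 99 genes, 82 had enough reads to be tested. Of these, 16 rose, which is 19.5%, beside 38.4% of all tested genes. In the other direction, 46 fell, which is 56.1%, beside 39.1% of all tested genes. The 62 called genes made up 75.6% of the 82, beside 77.5% of all tested genes. Changes beyond 2-fold, tested with glmTreat, were rises for 5 genes (6.10%) and falls for 19 (23.2%), where 17.4% of all tested genes rose and 18.2% fell by more than 2-fold. The stimulated libraries lay wholly above the unstimulated ones for 17 of the 82 genes and wholly below for 52, where 39.4% and 40.4% of all tested genes did so. The median log2 fold change was -0.46, with a range of -3.59 to 4.39, beside a median of -0.04 over all tested genes. All 16 genes that rose were higher, and all 46 that fell were lower, in each of the 3 comparisons of equally numbered libraries. The calls came from these same libraries, so this agreement is no separate support for them. Of the 20 genes not called, 7 were higher and 7 lower in all 3 comparisons, and 6 were mixed.

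The 3 kinds of gene differed in their counts. Among the 44 tested Rab GTPase genes, 9 rose (20.5%), 23 fell (52.3%) and 12 were not called, with a median log2 fold change of -0.43. Among the 29 tested TBC genes, 4 rose (13.8%), 21 fell (72.4%) and 4 were not called, with a median of -1.06. Of these TBC genes, 11 fell by more than 2-fold, which is 37.9%, beside 18.2% of all tested genes. Of the 9 tested Rab-named partners, 3 rose (33.3%), 2 fell (22.2%) and 4 were not called, with a median of 0.03. Of all tested genes, 38.4% rose and 39.1% fell.

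**Figure D1:**
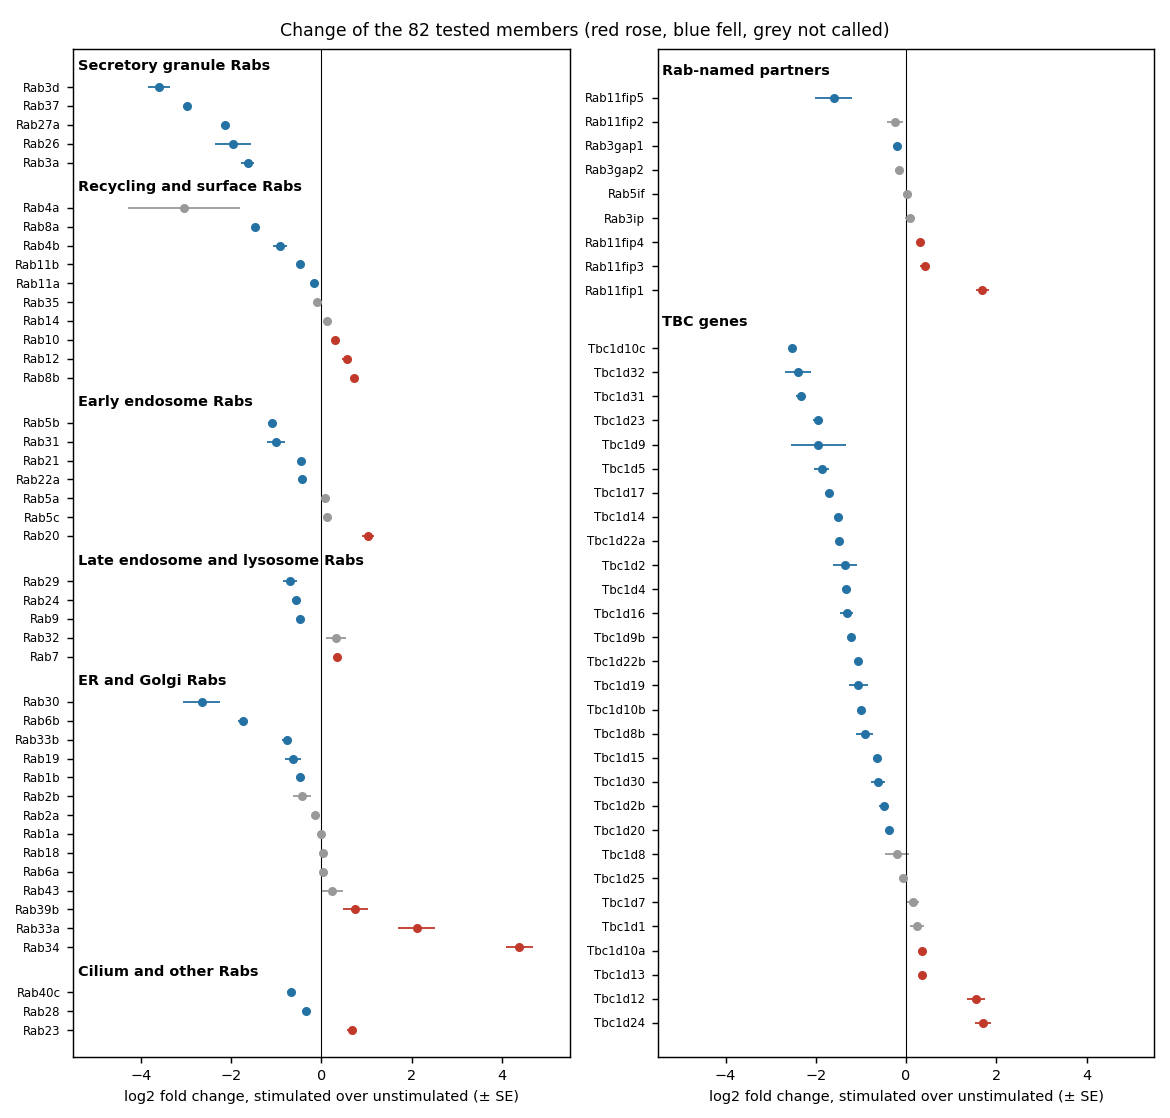
Log2 fold change of stimulated over unstimulated cells (x axis, with SE bars) for the 82 tested genes, grouped by compartment or kind; red points rose, blue points fell and grey points were not called. All 5 secretory granule Rabs lie between -3.59 and -1.63, and 21 of the 29 TBC genes are blue, beside 39.1% of all tested genes that fell.

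The Rabs of secretory granules had the lowest median change of the compartments. All 5 tested members fell, each by more than 2-fold, with a median log2 fold change of -2.14. Of all tested genes, 39.1% fell and 18.2% fell by more than 2-fold. Rab27a and Rab37 held most of the reads of this class. Rab27a docks granules at the plasma membrane and is required for the release of lytic granules by cytotoxic T cells. It measured 21.8, 21.2 and 20.1 CPM in stimulated libraries, against 93.8, 97.3 and 86.9 CPM in unstimulated ones. The groups were far apart and each was tight. The log2 fold change was -2.14 ± 0.07 (SE, adjusted p = 2e-08). Rab37, known from granules of mast cells, measured 13.3, 11.9 and 12.1 CPM in stimulated libraries, against 107.6, 96.5 and 90.0 CPM in unstimulated ones. Its change of -2.98 ± 0.09 (adjusted p = 1.15e-08) amounted to 7.87-fold less RNA.

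Rab3d and Rab3a belong to the Rab3 branch, which serves regulated exocytosis. Rab3d measured 1.74, 1.93 and 3.62 CPM in stimulated libraries, against 26.3, 31.9 and 30.01 CPM in unstimulated ones. Its change of -3.59 ± 0.24 (adjusted p = 2.48e-06) was the largest fall among the 82 tested genes, although stimulated replicate 3 stood above the other 2 stimulated libraries. Rab3a averaged 2.37 ± 0.229 CPM in stimulated and 7.35 ± 0.247 CPM in unstimulated cells, a log2 fold change of -1.63, and part of its exons overlap those of Mpv17l2 on the opposite strand. Rab26, a granule Rab of secretory cells, averaged 0.383 ± 0.246 CPM in stimulated and 1.51 ± 0.183 CPM in unstimulated cells, a change of -1.96 that became -2.58 without stimulated replicate 3. Its exons overlap Traf7 on the same strand, so its reads are uncertain.

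Summed over the class, the granule Rabs made 38.6 ± 1.09 CPM in stimulated and 229 ± 11.3 CPM in unstimulated cells, a ratio of 0.168. Without Rab37 and Rab27a the sums were 5.18 ± 1.21 CPM in stimulated and 38.7 ± 2.71 CPM in unstimulated cells, a ratio of 0.134. The low ratio thus did not rest on these 2 abundant members alone. Most of the remaining unstimulated sum was Rab3d, at 2.43 CPM in stimulated and 29.4 CPM in unstimulated cells. Of the 4 granule Rabs with too few reads for a test, Rab27b had 0 reads in stimulated and 33 in unstimulated libraries in all. Against a floor of 3 counts over the group, that is at least 9.94-fold lower in stimulated cells. Rab3b had 0 reads in stimulated and 6 in unstimulated libraries, Rab44 had 0 in stimulated and 4 in unstimulated ones, and Rab3c had no read.

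The promoters of 2 granule Rabs that fell together, Rab27a and Rab3d, are given here as the 200 bases before the transcription start, read 5′ to 3′ on the gene's strand. They were taken from RefSeq on GRCm38.p6, which lists chr9:73044610-73044809 on the plus strand for Rab27a and chr9:21918184-21918383 on the minus strand for Rab3d. Their starts lie 44 and 9 bases from the 5′ end of the gene in the GENCODE annotation. Of the 2 promoters listed for Rab27a, the one nearest this end is given. Capitals mark matches to any of 8 short motifs, which are described further on.
Rab27a: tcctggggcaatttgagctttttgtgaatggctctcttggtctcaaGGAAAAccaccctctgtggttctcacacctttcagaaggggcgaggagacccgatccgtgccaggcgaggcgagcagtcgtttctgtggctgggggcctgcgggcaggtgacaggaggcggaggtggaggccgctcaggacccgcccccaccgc
Rab3d: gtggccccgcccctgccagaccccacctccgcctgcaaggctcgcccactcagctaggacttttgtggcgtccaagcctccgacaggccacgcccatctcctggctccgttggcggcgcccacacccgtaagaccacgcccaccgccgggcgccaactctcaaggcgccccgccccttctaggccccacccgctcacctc
Rab27a holds 1 match, to the NFAT core GGAAAA on the same strand, 154 to 149 bases before the start. Rab3d holds no match in this window, and its 71.5% GC exceeds the 63% of Rab27a. Rab37 is not shown.

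**Figure D2:**
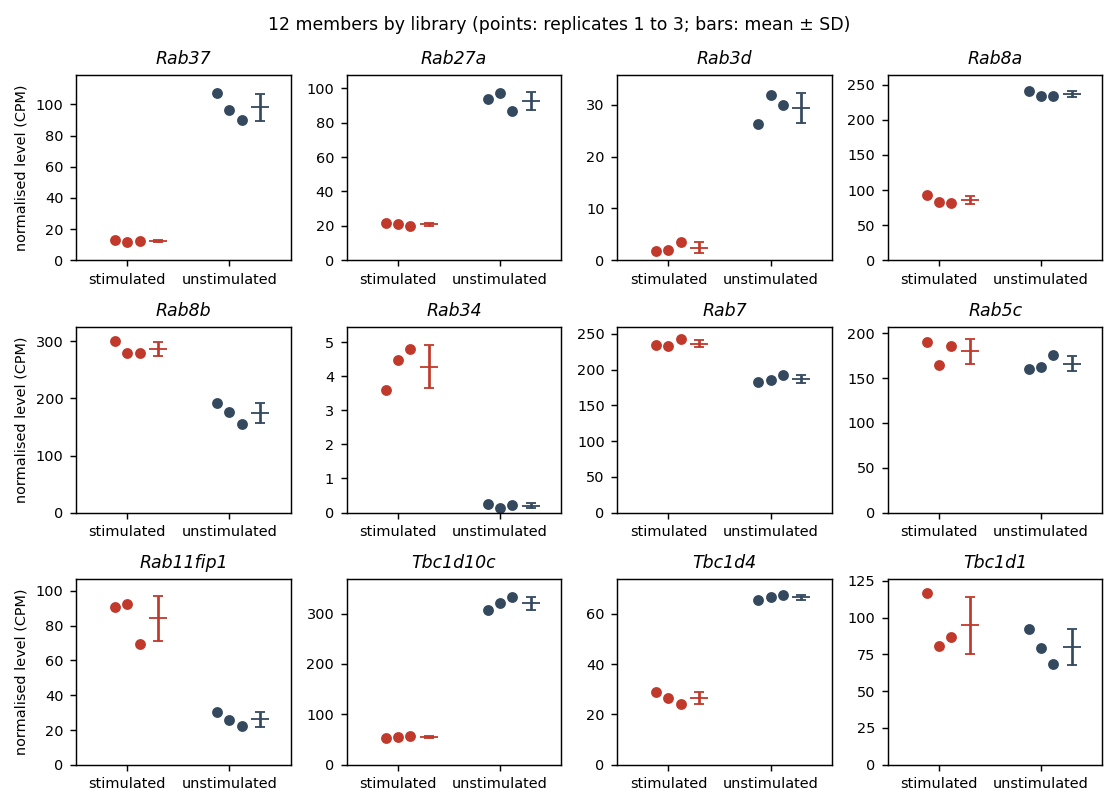
Normalised level in CPM (y axis, from 0) of 12 genes in each library; points are replicates 1 to 3 of the stimulated and unstimulated groups, and bars give mean ± SD. Rab37, Rab27a, Rab3d, Rab8a, Tbc1d10c and Tbc1d4 are low in all 3 stimulated libraries, Rab8b, Rab34, Rab7 and Rab11fip1 are high in them, and Rab5c and Tbc1d1 overlap.

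The Rabs of recycling endosomes and of transport to the cell surface moved in both directions. Of 10 tested, 3 rose (30%), 4 fell (40%) and 3 were not called, with a median log2 fold change of -0.14. Among all tested genes, 38.4% rose and 39.1% fell. The 2 close relatives Rab8a and Rab8b, which carry cargo to the plasma membrane and the cilium, moved in opposite directions. Rab8a measured 93.2, 82.6 and 81.8 CPM in stimulated libraries, against 241, 234 and 233 CPM in unstimulated ones. Rab8b measured 300.2, 279 and 280.3 CPM in stimulated libraries, against 191, 177 and 156 CPM in unstimulated ones. Neither gene's groups overlapped. Rab8a fell by 1.46 on the log2 scale (SE 0.07, adjusted p = 1.5e-07), which also passed the test against 2-fold. Rab8b rose by 0.71 (SE 0.08, adjusted p = 4.85e-05). Per kilobase of exon, the level of Rab8b was 3.18, 3.34 and 3.39 times that of Rab8a in stimulated libraries and 0.783, 0.747 and 0.659 times in unstimulated ones. The order of the pair was thus reversed in every library of the stimulated group.

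Because these relatives moved apart, their promoters are set side by side, again as the 200 bases before the RefSeq start: chr8:72161000-72161199 on the plus strand for Rab8a and chr9:66919706-66919905 on the minus strand for Rab8b (GRCm38.p6). Capitals mark motif matches.
Rab8a: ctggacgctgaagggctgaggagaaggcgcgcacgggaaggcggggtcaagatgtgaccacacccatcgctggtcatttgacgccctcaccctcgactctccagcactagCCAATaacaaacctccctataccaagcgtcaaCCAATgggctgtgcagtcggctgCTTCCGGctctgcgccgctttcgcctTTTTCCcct
Rab8b: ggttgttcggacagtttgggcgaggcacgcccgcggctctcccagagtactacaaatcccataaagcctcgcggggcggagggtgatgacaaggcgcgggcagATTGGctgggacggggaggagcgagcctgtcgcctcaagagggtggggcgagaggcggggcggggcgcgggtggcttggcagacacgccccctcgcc
Rab8a holds 2 CCAAT boxes on the same strand, 90 to 86 and 58 to 54 bases before the start. It also holds an ETS match (CCGGAAG, opposite strand) at 35 to 29 bases and an NFAT match (opposite strand) at 9 to 4 bases. Rab8b holds 1 CCAAT box on the opposite strand, 97 to 93 bases before the start, and no other match.

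Among the other recycling Rabs, Rab10, which carries glucose transporters to the surface of fat cells, averaged 196 ± 1.63 CPM in stimulated and 158 ± 9.47 CPM in unstimulated cells (log2 fold change 0.31 ± 0.07, adjusted p = 0.00213). Rab12, which directs the transferrin receptor to lysosomes, rose by 0.56 to 19.98 ± 0.418 CPM in stimulated cells, against 13.5 ± 1.63 CPM in unstimulated cells. Rab11b, a marker of the slow recycling route, fell to 67.8 ± 2.02 CPM in stimulated cells, against 93.9 ± 4.51 CPM in unstimulated cells (log2 fold change -0.47, adjusted p = 0.000147). Its relative Rab11a averaged 53.1 ± 1.28 CPM in stimulated and 59.7 ± 3.07 CPM in unstimulated cells. The change of Rab11a was small, -0.17 ± 0.07 (adjusted p = 0.0427). It lost the call in 12 of the alternative settings, among them RLE scaling, DESeq2 and each of 5 single libraries left out, and its adjusted p over all settings ran from 0.00344 to 0.242. Rab4b, on the fast recycling route, averaged 6.14 ± 0.931 CPM in stimulated and 11.6 ± 1.35 CPM in unstimulated cells (-0.91), and shares exon sequence with Gm21983 on the same strand.

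Rab35, which serves fast recycling at the immune synapse, and Rab14, which links early endosomes and the Golgi, were not called. Rab35 measured 121, 116 and 109 CPM in stimulated libraries, against 125, 124 and 124 CPM in unstimulated ones. The stimulated values were lower in each library, but the log2 fold change of -0.10 ± 0.06 missed the threshold (adjusted p = 0.17). With library sizes left without TMM scaling, the change of Rab35 was -0.24 (adjusted p = 0.00493). Rab14 averaged 122 ± 5.39 CPM in stimulated and 112 ± 0.785 CPM in unstimulated cells (log2 fold change 0.12 ± 0.06, adjusted p = 0.0996).

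Rab4a, the other fast recycling Rab, stood apart because its level depended on the replicate number. It measured 0.177, 0.351 and 3.24 CPM in stimulated libraries, against 3.95, 4.11 and 23.2 CPM in unstimulated ones, from 5, 10 and 94 reads and from 124, 130 and 739 reads. Replicate 3 was the highest library of both groups. The stimulated library was lower within each replicate number, by 22.3-fold, 11.7-fold and 7.17-fold. Without a block the log2 fold change of -3.04 ± 1.24 was not called (adjusted p = 0.0674). With the replicate number as a block it was -3.19 (adjusted p = 1.69e-07), and without replicate 3 it was -3.90 (adjusted p = 4.55e-05). DESeq2 also called it (-3.03, adjusted p = 0.0329), as did the fit without stimulated replicate 3 (-5.27, adjusted p = 0.0161). After Rab4a had been seen, all 12514 genes with a mean of at least 0.5 CPM were examined for such a pattern, in which 1 replicate number lay at least 4-fold above or below the other 2 in both groups. It was found in 8 genes, and Rab4a was the only one in which replicate 3 was the higher.

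The early endosome Rabs included 2 highly expressed members that were not called. Of 7 tested, 1 rose (14.3%), 4 fell (57.1%) and 2 were not called, with a median log2 fold change of -0.44. Among all tested genes, 38.4% rose and 39.1% fell. The Rab5 proteins drive fusion of early endosomes, and their 3 genes differed. Rab5c, which had the highest level per kilobase of the 3, measured 190.0, 164 and 186 CPM in stimulated libraries, against 160.2, 163 and 175 CPM in unstimulated ones. These groups overlapped (log2 fold change 0.12 ± 0.08, adjusted p = 0.195). Rab5a averaged 55.7 ± 2.95 CPM in stimulated and 52.7 ± 1.39 CPM in unstimulated cells and was not called either (0.08 ± 0.07, adjusted p = 0.295). Rab5b measured 38.8, 39.6 and 34.3 CPM in stimulated libraries, against 81.2, 83.7 and 75.3 CPM in unstimulated ones. It fell by 1.09 on the log2 scale (SE 0.08, adjusted p = 1.7e-06), but not by more than 2-fold in the glmTreat test.

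Of the other early endosome Rabs, 3 fell and 1 rose. Rab21, which takes part in the uptake of integrins, averaged 54.8 ± 4.17 CPM in stimulated and 74.6 ± 2.87 CPM in unstimulated cells, a log2 fold change of -0.45. Rab22a, which returns receptors taken up without clathrin, averaged 48.6 ± 3.51 CPM in stimulated and 65.8 ± 4.08 CPM in unstimulated cells (-0.44). Rab31 averaged 2.60 ± 0.203 CPM in stimulated and 5.21 ± 1.12 CPM in unstimulated cells (-1.002, adjusted p = 0.00143). Rab20, known from the maturation of phagosomes, was the member that rose. It measured 9.57, 8.14 and 8.44 CPM in stimulated libraries, against 4.10, 4.55 and 4.15 CPM in unstimulated ones (log2 fold change 1.03 ± 0.13, adjusted p = 7.48e-05).

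Of 5 tested late endosome and lysosome Rabs, 1 rose (20%), 3 fell (60%) and 1 was not called, with a median log2 fold change of -0.47. Among all tested genes, 38.4% rose and 39.1% fell. Rab7, the Rab of late endosomes and of their fusion with lysosomes, was the most abundant of all 99 genes per kilobase in stimulated cells. It measured 234, 233 and 242 CPM in stimulated libraries, against 182, 186 and 192 CPM in unstimulated ones. The groups did not overlap, and the rise of 0.34 ± 0.06 (adjusted p = 0.00065) was small. Rab9, which returns mannose 6-phosphate receptors to the Golgi, averaged 22.5 ± 1.84 CPM in stimulated and 31.2 ± 2.17 CPM in unstimulated cells (-0.47). Rab29, which has been linked to recycling of the T cell receptor, measured 16.9, 10.8 and 13.9 CPM in stimulated libraries, against 21.1, 20.96 and 25.2 CPM in unstimulated ones (-0.69 ± 0.16, adjusted p = 0.00345). Rab24, an atypical Rab of the autophagy pathway, averaged 32.6 ± 0.871 CPM in stimulated and 48.0 ± 4.53 CPM in unstimulated cells (-0.56), with exons that overlap Prelid1 on the opposite strand. Rab32, a Rab of lysosome-related organelles, averaged 4.18 ± 0.235 CPM in stimulated and 3.33 ± 1.04 CPM in unstimulated cells and was not called (0.33 ± 0.23, adjusted p = 0.222). It was called as higher without unstimulated replicate 2 (adjusted p = 0.0494).

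The Rabs of the endoplasmic reticulum and Golgi held the largest rise of all 82 tested genes. Of 14 tested, 3 rose (21.4%), 5 fell (35.7%) and 6 were not called, with a median log2 fold change of -0.07. Among all tested genes, 38.4% rose and 39.1% fell. Rab34, a Golgi Rab that positions lysosomes and takes part in the building of cilia, measured 3.58, 4.46 and 4.79 CPM in stimulated libraries, against 0.255, 0.126 and 0.220 CPM in unstimulated ones. These values stood for 101, 127 and 139 reads in stimulated and 8, 4 and 7 reads in unstimulated libraries. The log2 fold change was 4.39 ± 0.29 (adjusted p = 9.01e-07), and the gene remained modest in level at 1.79 CPM per kilobase in stimulated cells. Rab33a, whose relative Rab33b binds the autophagy protein ATG16L1, was also near the detection limit at rest. It had 13, 20 and 15 reads in stimulated libraries, against 5, 3 and 4 reads in unstimulated ones (2.11 ± 0.41, adjusted p = 0.0012). Its rise by more than 2-fold (adjusted p = 0.0125 in the glmTreat test) was not called without unstimulated replicate 2, nor at a threshold of 0.01. With DESeq2, with limma-voom and without replicate 2, only 1 Rab GTPase gene rose by more than 2-fold, beside 2 in the main test. Rab39b averaged 1.44 ± 0.204 CPM in stimulated and 0.855 ± 0.227 CPM in unstimulated cells (0.75 ± 0.27, adjusted p = 0.0328). It lost the call in 9 of the alternative settings, and its adjusted p over all settings ran from 0.0131 to 0.202.

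Among the 79 of the 99 genes with a promoter in the RefSeq table, the AP-1 motif TGANTCA was found in Rab34 and Rab39b. That is 2.53%, beside 7.81% of all promoters. The 200 bases before the RefSeq start of Rab34, chr11:78188227-78188426 on the plus strand of GRCm38.p6, are shown because this gene rose most. Of the 2 promoters listed for Rab34, the one nearest the annotated 5′ end is given. Capitals mark the match, 58 to 52 bases before the start. An NFAT match of Rab34 lies outside the printed bases, in the wider window searched, which is described further on.
Rab34: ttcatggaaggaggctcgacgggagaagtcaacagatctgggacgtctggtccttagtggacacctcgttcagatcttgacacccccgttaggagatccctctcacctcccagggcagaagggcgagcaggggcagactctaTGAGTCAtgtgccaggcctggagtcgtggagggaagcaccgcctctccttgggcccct

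The Golgi Rabs that fell included 2 beyond 2-fold. Rab6b, a relative of the Golgi Rab6a, measured 7.41, 7.13 and 7.10 CPM in stimulated libraries, against 23.1, 26.5 and 22.5 CPM in unstimulated ones (-1.74 ± 0.10, adjusted p = 3.33e-07). Rab30, a Rab of the Golgi stack, averaged 0.197 ± 0.111 CPM in stimulated and 1.27 ± 0.166 CPM in unstimulated cells (-2.65 ± 0.40, adjusted p = 0.000265). Rab33b averaged 10.5 ± 0.734 CPM in stimulated and 17.8 ± 1.40 CPM in unstimulated cells (-0.76). Rab19 averaged 21.2 ± 3.43 CPM in stimulated and 32.8 ± 7.003 CPM in unstimulated cells (-0.63), and its call was lost without replicate 3 (adjusted p = 0.0698). Rab1b, which with Rab1a moves vesicles out of the endoplasmic reticulum, measured 113, 114 and 116 CPM in stimulated libraries, against 149, 163 and 164 CPM in unstimulated ones (-0.47 ± 0.07, adjusted p = 0.000132).

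Several abundant Rabs of the early secretory pathway gave no call. Rab1a averaged 135 ± 1.46 CPM in stimulated and 136 ± 8.80 CPM in unstimulated cells (log2 fold change -0.01 ± 0.07, adjusted p = 0.947). Rab6a averaged 65.7 ± 2.56 CPM in stimulated and 64.1 ± 2.26 CPM in unstimulated cells (0.03 ± 0.06). Rab18, of lipid droplets, averaged 71.3 ± 1.92 CPM in stimulated and 70.0 ± 1.51 CPM in unstimulated cells (0.03 ± 0.06). Rab2a averaged 95.7 ± 2.77 CPM in stimulated and 105 ± 3.59 CPM in unstimulated cells. Its change of -0.14 ± 0.06 gave an adjusted p of 0.0731, and 0.0457 with the replicate number as a block. Rab2b, at 2.36 ± 0.322 CPM in stimulated and 3.17 ± 0.420 CPM in unstimulated cells, gave -0.43 ± 0.19 (adjusted p = 0.0688, and 0.0388 with the block). Rab43 averaged 5.44 ± 0.607 CPM in stimulated and 4.60 ± 1.503 CPM in unstimulated cells (0.24 ± 0.24).

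The 3 remaining tested Rabs were all called, beside 77.5% of all tested genes. Rab23, an inhibitor of hedgehog signalling, averaged 12.8 ± 0.257 CPM in stimulated and 8.04 ± 0.348 CPM in unstimulated cells (0.67). Rab28, a ciliary Rab, averaged 15.6 ± 0.762 CPM in stimulated and 19.9 ± 0.319 CPM in unstimulated cells (-0.35). Rab40c, which has a SOCS box and joins a ubiquitin ligase complex, averaged 13.8 ± 0.320 CPM in stimulated and 22.0 ± 1.34 CPM in unstimulated cells (-0.67).

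The shares of the compartments in the summed Rab GTPase level per kilobase differed most for the granule Rabs. Their share was 1.40% ± 0.0134 in stimulated and 6.81% ± 0.377 in unstimulated cells (SD, n = 3 each). Recycling and surface Rabs held 32.9% in stimulated and 30.3% in unstimulated cells. Endoplasmic reticulum and Golgi Rabs held 26.6% in stimulated and 27.6% in unstimulated cells. Late endosome Rabs held 19.2% in stimulated and 16.7% in unstimulated cells, and early endosome Rabs held 18.5% in stimulated and 17.1% in unstimulated cells. The few other Rabs held 1.39% in stimulated and 1.599% in unstimulated cells. The groups did not overlap for any of the 6 classes, and each gave p = 0.1 in a two-sided exact permutation test, the smallest value that 3 libraries against 3 allow. A share depends on the other classes as well. The summed level of the recycling and surface Rabs was 224 ± 4.25 CPM per kilobase in stimulated and 236 ± 2.36 CPM per kilobase in unstimulated cells. That of the early endosome Rabs was 126 ± 7.59 in stimulated and 133 ± 1.83 in unstimulated cells, and that of the late endosome Rabs 130.9 ± 2.34 in stimulated and 130.1 ± 6.11 in unstimulated cells, on the same scale. The higher shares of these 3 classes in stimulated cells thus stood beside levels per kilobase that were lower or overlapped. Without length scaling, the late endosome sum was 310 ± 5.42 CPM in stimulated and 292 ± 12.4 CPM in unstimulated cells. There the lowest stimulated library, at 305.4 CPM, lay just above the highest unstimulated one, at 305.3 CPM. The summed Rab GTPase level was 2269 ± 41.1 CPM in stimulated and 2634 ± 14.7 CPM in unstimulated cells.

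**Figure D3:**
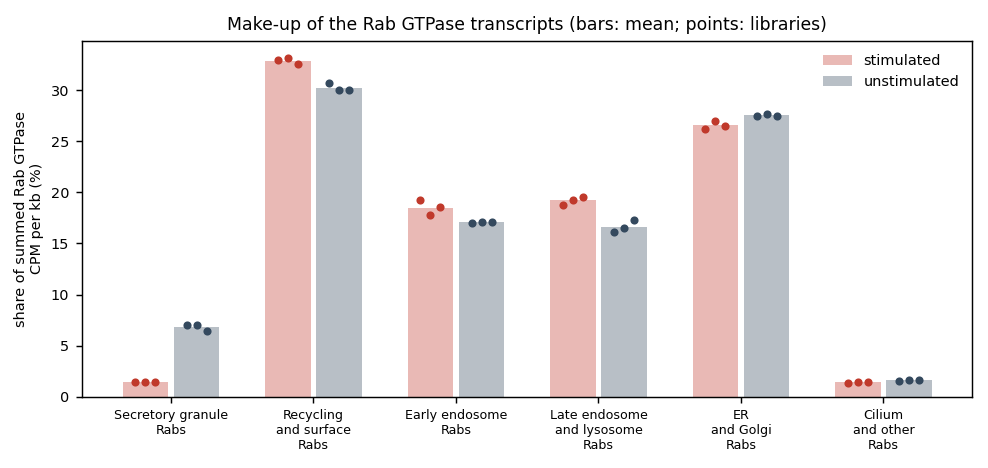
Share of each compartment class in the summed Rab GTPase level (y axis, percent of CPM per kilobase of exon); bars are means, points are the 3 libraries of the stimulated and unstimulated groups. The granule share is 1.40% in stimulated and 6.81% in unstimulated cells, while recycling and surface Rabs hold 32.9% and 30.3%.

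Of the 9 tested Rab-named partners, the effectors of Rab11 held the clearest changes. Rab11fip1, which links Rab11 to recycling tubules, measured 90.9, 92.4 and 69.3 CPM in stimulated libraries, against 30.4, 25.9 and 22.1 CPM in unstimulated ones. The lowest stimulated library lay well above the highest unstimulated one, and the rise of 1.69 ± 0.15 (adjusted p = 9.58e-06) exceeded 2-fold. Rab11fip4 averaged 90.9 ± 5.70 CPM in stimulated and 73.6 ± 6.83 CPM in unstimulated cells (0.31, adjusted p = 0.00987). Rab11fip3, which acts with Rab11 in cell division, averaged 15.5 ± 1.68 CPM in stimulated and 11.5 ± 0.681 CPM in unstimulated cells (0.42, adjusted p = 0.00652). Both lost the call with library sizes left without TMM scaling, where the adjusted p was 0.0894 for Rab11fip4 and 0.0527 for Rab11fip3, and both lost it without replicate 2. Rab11fip5 averaged 0.325 ± 0.199 CPM in stimulated and 1.001 ± 0.181 CPM in unstimulated cells (-1.61, adjusted p = 0.00613). Its change was -2.21 without stimulated replicate 3, and its call was lost without replicate 2 (adjusted p = 0.0757).

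Rab3gap1 and Rab3gap2 form a complex that inactivates Rab3 and loads GTP onto Rab18. Rab3gap1 measured 72.3, 77.1 and 69.7 CPM in stimulated libraries, against 81.8, 91.4 and 79.7 CPM in unstimulated ones. The log2 fold change of -0.21 was called (adjusted p = 0.033), but the call was lost in 9 of the alternative settings, with an adjusted p of up to 0.162. Rab3gap2 averaged 40.1 ± 1.31 CPM in stimulated and 45.1 ± 3.20 CPM in unstimulated cells (-0.17, adjusted p = 0.0699, and 0.0321 with the replicate block). Rab11fip2 averaged 14.4 ± 1.90 CPM in stimulated and 17.1 ± 3.81 CPM in unstimulated cells (-0.25, adjusted p = 0.222, and 0.0467 with the block). Rab3ip, an exchange factor of Rab8, averaged 17.7 ± 0.845 CPM in stimulated and 16.6 ± 2.49 CPM in unstimulated cells, and Rab5if averaged 33.4 ± 4.21 CPM in stimulated and 32.7 ± 1.67 CPM in unstimulated cells. Neither was called.

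The TBC genes were lower as a class. Their summed level was 813 ± 22.5 CPM in stimulated and 1570 ± 49.9 CPM in unstimulated cells, a ratio of 0.518. Without Tbc1d10c the sums were 757 ± 24.1 CPM in stimulated and 1249 ± 63.1 CPM in unstimulated cells, a ratio of 0.606. Tbc1d10c encodes carabin, which inhibits calcineurin and Ras signalling in lymphocytes. It measured 53.2, 55.8 and 56.8 CPM in stimulated libraries, against 307, 320.5 and 334 CPM in unstimulated ones. The groups were far apart and each was tight. The log2 fold change of -2.53 ± 0.07 (adjusted p = 6.93e-09) had the smallest adjusted p of the 82 genes. Per kilobase of exon, Tbc1d10c ranked 1 of all 99 genes in unstimulated cells, at 88.4 ± 3.74 CPM per kilobase, and 16 in stimulated cells, at 15.3 CPM per kilobase. Its gene lies on chromosome 19, from 4183411 to 4191284 on the minus strand of GRCm38, and part of its exons are shared with a processed transcript on the same strand.

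The relatives of Tbc1d10c had smaller changes, in both directions. Tbc1d10b, a GTPase-activating protein of Rab35, measured 47.9, 46.7 and 48.1 CPM in stimulated libraries, against 97.2, 97.3 and 92.8 CPM in unstimulated ones (-1.01 ± 0.06, adjusted p = 4.8e-07). Tbc1d10a, which acts on Rab27a, measured 67.8, 76.5 and 84.7 CPM in stimulated libraries, against 61.4, 59.2 and 58.1 CPM in unstimulated ones. Tbc1d10a rose slightly (0.36 ± 0.09, adjusted p = 0.00443), and lost the call without TMM scaling (adjusted p = 0.0559) and without replicate 2 (adjusted p = 0.0601). Per kilobase, Tbc1d10a stood at 1.69, 1.82 and 1.98 times Tbc1d10c in stimulated libraries and at 0.266, 0.245 and 0.231 times in unstimulated ones.

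**Figure D4:**
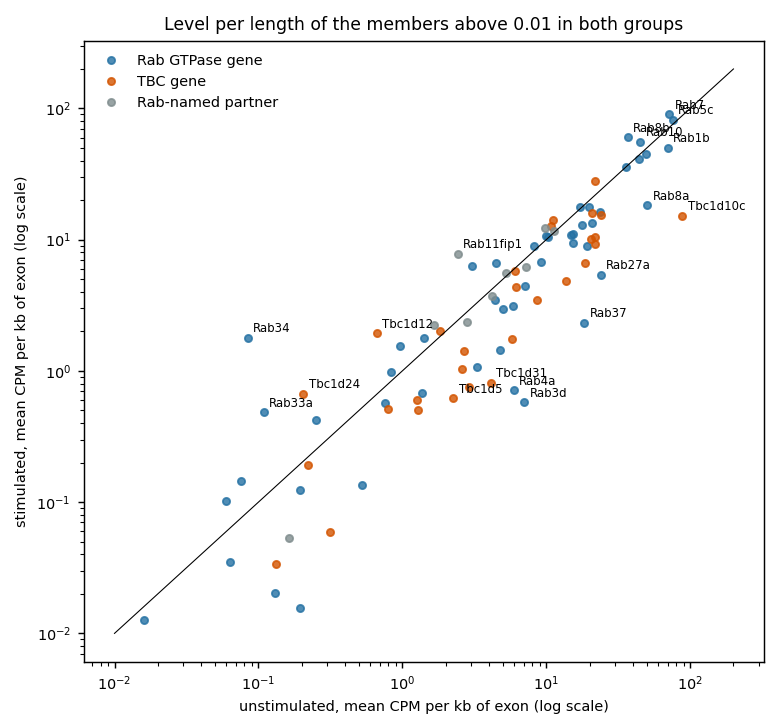
Mean level per kilobase of exon in stimulated cells (y axis) against unstimulated cells (x axis), in CPM per kilobase on log scales, for the genes above 0.01 in both; the line marks equal levels. Tbc1d10c lies far below the line, at 15.3 in stimulated and 88.4 in unstimulated cells, and Rab34 far above it, while Rab7 and Rab5c stay near the line at the upper end.

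Tbc1d1 and Tbc1d4 are substrates of AKT and AMP-activated kinase and control the Rabs that carry glucose transporters. Tbc1d4 measured 28.8, 26.5 and 23.9 CPM in stimulated libraries, against 65.5, 66.5 and 67.5 CPM in unstimulated ones (-1.33 ± 0.08, adjusted p = 4.9e-07). Tbc1d1 measured 117, 80.4 and 86.8 CPM in stimulated libraries, against 92.2, 79.4 and 68.2 CPM in unstimulated ones. The groups of Tbc1d1 overlapped (0.24 ± 0.16, adjusted p = 0.197), though within each replicate number the stimulated library was the higher, and with the replicate number as a block the change of 0.24 was called (adjusted p = 0.0111). Per kilobase, the ratio of Tbc1d1 to Tbc1d4 averaged 3.70 ± 0.532 in stimulated and 1.25 ± 0.206 in unstimulated cells.

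The TBC genes described next all fell and encode proteins tied to endosomes and autophagy, a grouping made after the values were seen. It leaves out TBC genes of endosomal Rabs that rose, such as Tbc1d12 (1.54) and Tbc1d13 (0.36), and Tbc1d25, which was not called (-0.07). Tbc1d5, which inactivates Rab7 on retromer-coated endosomes, measured 10.03, 7.55 and 7.17 CPM in stimulated libraries, against 34.4, 30.8 and 25.2 CPM in unstimulated ones (-1.87 ± 0.16, adjusted p = 5.55e-06). Tbc1d15 and Tbc1d17 are relatives, of which Tbc1d15 acts on Rab7 and Tbc1d17 on Rab8. Tbc1d17 averaged 17.1 ± 1.45 CPM in stimulated and 55.8 ± 0.668 CPM in unstimulated cells (-1.71), with exons that overlap Akt1s1 and Il4i1 on the opposite strand. Tbc1d15 fell less, to 65.8 ± 1.59 CPM in stimulated cells, against 103 ± 9.90 CPM in unstimulated cells (-0.64). Tbc1d14, which ties recycling endosomes to autophagosome formation, measured 47.7, 46.3 and 48.1 CPM in stimulated libraries, against 149, 138 and 115 CPM in unstimulated ones (-1.498 ± 0.10, adjusted p = 8.57e-07). Tbc1d2, a GTPase-activating protein of Rab7, averaged 2.73 ± 0.614 CPM in stimulated and 6.99 ± 2.41 CPM in unstimulated cells (-1.35). It exceeded 2-fold in the glmTreat test with the replicate block (adjusted p = 0.0165) but not without the block (adjusted p = 0.0952). Its relative Tbc1d2b fell by 0.49. Tbc1d16, which acts on Rab4a, averaged 7.40 ± 0.945 CPM in stimulated and 18.4 ± 2.65 CPM in unstimulated cells (-1.31). Tbc1d9b, which acts on Rab11a, averaged 59.9 ± 0.751 CPM in stimulated and 139 ± 7.46 CPM in unstimulated cells (-1.22).

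A further 6 TBC genes that fell encode proteins known from the Golgi, the early secretory pathway or the cilium, a grouping made after the values were seen. Tbc1d23, which captures vesicles at the trans-Golgi, measured 6.70, 7.41 and 8.06 CPM in stimulated libraries, against 27.3, 27.6 and 31.0 CPM in unstimulated ones (-1.95 ± 0.10, adjusted p = 2.21e-07). Tbc1d31, a protein of centriolar satellites, measured 4.89, 5.55 and 5.06 CPM in stimulated libraries, against 24.3, 27.8 and 26.3 CPM in unstimulated ones (-2.34 ± 0.10, adjusted p = 6.25e-08). Tbc1d32, needed for hedgehog signalling through the cilium, averaged 0.630 ± 0.128 CPM in stimulated and 3.32 ± 0.873 CPM in unstimulated cells (-2.39 ± 0.28). Tbc1d22a and Tbc1d22b, which bind the Golgi protein ACBD3, fell together: Tbc1d22a to 22.7 ± 1.05 CPM in stimulated cells, against 63.8 ± 2.15 CPM in unstimulated cells (-1.49), and Tbc1d22b to 43.9 ± 5.52 CPM, against 91.7 ± 2.41 CPM (-1.06). Tbc1d20, which inactivates Rab1, averaged 66.6 ± 3.71 CPM in stimulated and 86.3 ± 1.35 CPM in unstimulated cells (-0.37).

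The other TBC genes that fell were Tbc1d19 (-1.06), Tbc1d8b (-0.92), Tbc1d30 (-0.62) and Tbc1d9. Tbc1d9 rested on few reads, with 0.461, 0.0354 and 0.103 CPM in stimulated libraries, against 0.859, 0.822 and 0.660 CPM in unstimulated ones. Its change of -1.95 (adjusted p = 0.016) became -3.41 without stimulated replicate 1, and its call was lost in 4 of the alternative settings. It exceeded 2-fold with the replicate block (adjusted p = 0.0416) but not without it (adjusted p = 0.0869). Of the 4 TBC genes that rose, 2 exceeded 2-fold. Tbc1d24, a TBC protein of synaptic vesicle traffic, measured 5.46, 6.64 and 5.10 CPM in stimulated libraries, against 1.72, 1.80 and 1.73 CPM in unstimulated ones (1.71 ± 0.17, adjusted p = 1.62e-05), and shares exon sequence with Ntn3 on the same strand. Tbc1d12, which binds Rab11, measured 8.86, 8.22 and 7.34 CPM in stimulated libraries, against 2.77, 3.54 and 2.07 CPM in unstimulated ones (1.54 ± 0.20, adjusted p = 9.13e-05). Tbc1d13, which acts on Rab35, averaged 67.0 ± 1.33 CPM in stimulated and 52.2 ± 3.86 CPM in unstimulated cells (0.36). Tbc1d7, the small subunit of the TSC complex upstream of mTORC1, averaged 8.10 ± 0.675 CPM in stimulated and 7.33 ± 0.796 CPM in unstimulated cells and was not called, nor were Tbc1d8 and Tbc1d25.

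Several pairs of relatives changed their balance, as compared per kilobase of exon within each library over 16 pairs that were chosen after the values were seen. The ratio of Rab5c to Rab5b averaged 9.23 ± 1.21 in stimulated and 3.99 ± 0.410 in unstimulated cells, and that of Rab5a to Rab5b averaged 1.19 ± 0.0692 in stimulated and 0.525 ± 0.0149 in unstimulated cells. Rab6a stood at 12.3 ± 0.348 times Rab6b in stimulated and 3.61 ± 0.291 times in unstimulated cells. Tbc1d10a stood at 2.76 ± 0.301 times Tbc1d10b in stimulated and 1.07 ± 0.0213 times in unstimulated cells. The groups overlapped for 4 of the 16 pairs, which were Rab4b over Rab4a, Rab22a over Rab31, Tbc1d9b over Tbc1d9 and Rab3gap1 over Rab3gap2. Among all tested genes, 39.4% lay wholly higher and 40.4% wholly lower in stimulated libraries. Ratios of unrelated genes were not examined, so the count of separated pairs is not particular to relatives. For Rab3gap1 over Rab3gap2, whose products share a complex, the ratios were 1.67 ± 0.0484 in stimulated and 1.72 ± 0.106 in unstimulated cells. The order of relatives was reversed between the groups for Rab8b and Rab8a, Rab5a and Rab5b, and Tbc1d10a and Tbc1d10c.

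**Figure D5:**
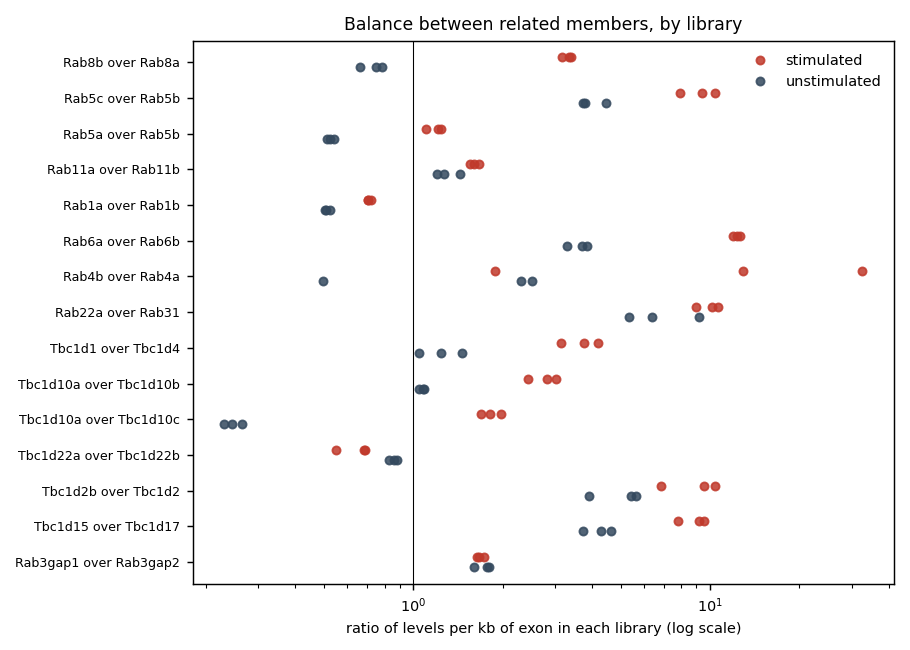
Ratio of the levels per kilobase of exon of 15 pairs of related genes in each library (x axis, log scale; the vertical line marks equal levels), stimulated in red and unstimulated in dark blue; Tbc1d9b over Tbc1d9 is not drawn, since Tbc1d9 had few reads. Rab8b over Rab8a lies above 1 in all 3 stimulated libraries and below 1 in all 3 unstimulated ones, and 3 of the drawn pairs overlap between the groups.

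The genes that load, carry and read out the Rabs were counted from separate lists, beside the 38.4% of all tested genes that rose and the 39.1% that fell. Of 35 tested exchange factor genes, 16 rose (45.7%), 15 fell (42.9%) and 4 were not called, shares near those of all tested genes, with a median log2 fold change of 0.23. Madd, the exchange factor of Rab3 and Rab27, averaged 40.4 ± 1.53 CPM in stimulated and 422 ± 30.4 CPM in unstimulated cells (-3.38 ± 0.08, adjusted p = 5.23e-09). Dennd1c, of the Rab35 exchange factor family, averaged 32.9 ± 0.649 CPM in stimulated and 148 ± 1.98 CPM in unstimulated cells (-2.17), while Dennd3, which acts on Rab12, averaged 25.5 ± 2.69 CPM in stimulated and 5.71 ± 0.0691 CPM in unstimulated cells (2.16). Hps4, part of the exchange factor of Rab32, rose by 0.73. Of 9 tested GTPase-activating proteins without a Tbc1d name, 4 rose (44.4%) and 5 fell (55.6%), with a median of -0.33. Evi5l fell by 2.92 and Grtp1 fell by 2.39 on the log2 scale, whereas Sgsm3 rose by 2.37 and Evi5, which acts on Rab11, by 1.11.

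Of 7 tested genes for prenylation and membrane extraction of Rabs, 3 rose and 3 fell (42.9% each) and 1 was not called, with a median log2 fold change of -0.17. Rabggtb, the catalytic subunit that attaches the lipid anchor, averaged 147 ± 6.10 CPM in stimulated and 35.3 ± 0.580 CPM in unstimulated cells (2.06 ± 0.07, adjusted p = 1.29e-08). Chml, a Rab escort protein, averaged 21.1 ± 2.32 CPM in stimulated and 6.60 ± 0.398 CPM in unstimulated cells (1.67). Rabac1 fell by 1.27 and Gdi2, which extracts GDP-bound Rabs from membranes, fell by 0.71 on the log2 scale. Of 45 tested effector genes, 14 rose (31.1%), 24 fell (53.3%) and 7 were not called, with a median of -0.45. Mical1, an actin-oxidising effector of Rab1 and Rab35, averaged 19.4 ± 2.07 CPM in stimulated and 168 ± 6.90 CPM in unstimulated cells (-3.11). Ehbp1l1, a Rab8 effector, fell by 1.75, while Rabep1, the Rab5 effector rabaptin-5, rose by 1.35 and Myo5a, the motor that carries Rab27a vesicles, by 1.29. Rabgap1 and Dennd5a each stand in 2 of these lists.

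The motif search covered the window of 250 bases before to 50 after the RefSeq start, on both strands, for 79 of the 99 genes. For the 18 of these with more than 1 promoter, only the one nearest the annotated 5′ end was used. The 32851 promoters instead include every promoter listed, whether or not the gene was tested, so the compared shares and GC medians differ in unit. Of these 79, 36 fell and 14 rose. The E-box CACGTG was present in 13 of the 79, which is 16.5%, beside 7.15% of all 32851 promoters, and these held 6 of the 36 genes that fell and 4 of the 14 that rose. ETS (CCGGAAG) was present in 11, which is 13.9%, beside 8.86% of all promoters, of which 5 fell and 0 rose. GGGNNTTCC, an NF-kB type motif, was present in 6, which is 7.59%, beside 5.82%, of which 5 fell and 0 rose. The NFAT core was present in 13, which is 16.5%, beside 23.4% of all promoters, and of these 7 fell and 4 rose. CCAAT was present in 31, which is 39.2%, beside 37.4%, of which 15 fell and 5 rose. The CRE TGACGTCA was present in 3, beside 1.79%, of which 0 fell and 1 rose. AP-1 was present in 2, beside 7.81%, and both rose. The EGR motif GCGTGGGCG was present in 0, beside 0.612% of all promoters. The median GC content was 62.7% for the 79 genes and 52.7% for all promoters. A match describes letters in a window, not a bound site.

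The remaining 17 genes had too few reads to be tested, with at most 29 in any library. They comprised 15 Rab GTPase genes, Rab3il1 and Tbc1d21. Rab38, Rab40b, Rab3c and Tbc1d21 had no read, which allows up to 0.0943 to 0.106 CPM per library for counting error alone. Rab17, an epithelial Rab, had 21 reads in stimulated and 37 in unstimulated libraries, of which replicate 2 held 18 and 29. Rab36 had 5 reads in stimulated and 20 in unstimulated libraries, Rab39 had 9 and 18, and Rab42 had 1 and 14. Rab13 had 20 reads in stimulated and 13 in unstimulated libraries, Rab25 had 21 and 12, and Rab15 had 5 and 7. Rab7b, Rab9b and Rab3il1 had at most 2 reads in either group.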

How the data were processed

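RNA sequencing of 6 libraries, 3 stimulated and 3 unstimulated, was used. The values are raw read counts per Ensembl gene, deposited by the authors in 1 table. Total RNA was turned into TruSeq libraries, per the labels' protocols. GRCm38, STAR 2.5.2a, HTSeq and DESeq2 appear in the submitters' processing notes without stated roles. The sources used here do not give the annotation release, the strand setting or read filters. Reads of overlapping genes can therefore not be told apart, and 36 of the 82 tested genes share exon positions with another gene, 16 with another protein-coding gene.

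Symbols, biotypes, coordinates and exon lengths came from GENCODE M21, and promoters from RefSeq. The rule also matches 9 genes of other biotypes, which were left out. The genes and lists were chosen with earlier results of these data known. Counts were tested with edgeR 4.0.16 in R 4.3.3 (TMM, filterByExpr, robust quasi-likelihood fit on group, two-sided) over 13314 genes, with Benjamini-Hochberg adjustment at 0.05, and with glmTreat at a log2 fold change of 1. Levels were compared between genes only as CPM per kilobase of summed exon length. The text gives the genes past glmTreat, the most abundant of each class, a set of well-known Rab and TBC genes, and the others where a class is described. For the other lists it gives the 2 genes with the smallest p in each direction. The edgeR test on group was tried on simulated counts with known 2-fold changes and no effect of the replicate number.

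No pair of libraries in a group agreed within counting noise, with dispersion indices of 9.41 to 37.6, where counting noise gives about 1. The p-values measure the spread between these libraries. Floors cover counting error only. The labels give no batch or date and do not say what a replicate number marks. Libraries of equal number deviated together, with correlations of 0.464, 0.145 and 0.501 across genes for numbers 1, 2 and 3. The numbers were thus taken to pair the libraries, from the data alone and most weakly for number 2. The main test was on group and left this pairing out, and only the fit with the replicate block included it. As alternatives, DESeq2 1.42.0 and limma-voom (limma 3.58.1) replaced the test, RLE or unscaled library sizes replaced TMM, and a minimum of 1 CPM in 3 libraries or no minimum replaced the filter. The replicate number was added as a block, the threshold was set to 0.01, and single libraries and pairs of equal number were left out. The search for genes with 1 deviating replicate number was chosen after seeing the data.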

Additional observations from a re-analysis of the deposited data

How the results depend on the processing

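Of the 62 called genes, 60 kept their call and direction with RLE normalization, 58 with library size alone, 61 with no filter, 59 with DESeq2, 62 with limma-voom, and 58 at an adjusted p of 0.01. With the filter of 1 CPM in 3 libraries, 59 kept it and 3 were not tested. The paired fit, with the replicate block, kept all 62 and called 6 more, giving 17 that rose and 51 that fell. The values of these 6 (Rab4a, Tbc1d1, Rab2a, Rab2b, Rab3gap2 and Rab11fip2) stand beside their results. It also raised the number that fell by more than 2-fold to 22, beside 19 without the block, by adding Rab4a, Tbc1d2 and Tbc1d9 (Rab GTPase genes 9 beside 8, TBC genes 13 beside 11), and it changed no other call of either kind. Leaving out single libraries kept 59 to 62 calls, and leaving out replicate number 1, 2 or 3 kept 60, 54 or 57. No called gene changed direction in any of these settings. With library size alone, the median log2 fold change of all tested genes was -0.18, beside -0.04 with TMM scaling, and 7 genes without a call (Rab5a, Rab5c, Rab5if, Rab6a, Rab14, Rab18 and Rab3ip) turned from above 0 to below 0.

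The number of Rab GTPase genes that rose by more than 2-fold was 2, Rab34 and Rab33a. It was 1 with the 1 CPM filter, DESeq2, limma-voom and an adjusted p of 0.01, and 1 to 2 when libraries or replicate numbers were left out. The 1 CPM filter did not test Rab33a, and its adjusted p of 0.0125 in the glmTreat test did not pass 0.01. For the other settings the cause was not tested. Depth limits the 17 untested genes and those under about 1 CPM, such as Rab33a, Rab26, Rab30, Rab11fip5 and Tbc1d9.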
